A study of Mus musculus with 8 samples.

Results

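The replication-dependent histone genes encode the linker histone H1 and the core histones H2A, H2B, H3 and H4 that are made while DNA is copied. They were taken as the genes whose current mouse symbol is *H2ac*, *H2bc*, *H3c* or *H4c* followed by digits only, or *H1f1* to *H1f5*, matched by Entrez identifier. This rule, which uses no measured value, matched 63 genes, and 62 of them had a row in the count table of 27179 genes. The missing one, *H2ac14*, was not analysed here. All 62 members were among the 17700 genes that passed the expression filter, with 5 genes of H1, 17 of H2A, 16 of H2B, 12 of H3 and 12 of H4. On GRCm38.p6, 52 of them lay on chromosome 13 between 21715711 and 23934913, and 10 lay on chromosome 3 between 96219885 and 96270192.

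The RNA came from early LPre-B and sPre-B cells, which are large dividing and small resting precursors of B cells, sorted from mouse bone marrow. Ctrl/*Igh* B1-8hi mice were *Upf1* Flox/Flox, Mb1 +/+ and *Igh* B1-8hi/+. The cKO/*Igh* B1-8hi mice were *Upf1* Flox/Flox, Mb1 Cre/+ and *Igh* B1-8hi/+. Both genotypes thus carried the floxed *Upf1* alleles, in which loxP sites flank exons 4 to 6, and a prerearranged heavy chain gene, and both were on a C57BL/6 background. Cre was expressed from the Mb1 locus (*Cd79a*), which is active from early B cell progenitors onward. Mice were males and females of 8 to 16 weeks. Each of the 4 groups had 2 libraries (replicates 1 and 2), made from total RNA after depletion of ribosomal RNA, so that transcripts without a poly(A) tail were not removed by selection. The labels do not say whether libraries of a group came from separate animals, so *P* values describe the spread between these libraries.

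Most mRNAs of this class end in a conserved stem-loop instead of a poly(A) tail. Stem-loop binding protein (SLBP) holds this structure through processing, export and translation, and the pool is degraded quickly when DNA synthesis stops. UPF1, an RNA helicase best known for nonsense-mediated decay, is recruited to SLBP in that degradation. The comparisons below ask how the levels of these mRNAs differed between the cycling and the resting stage and between cells with and without the floxed *Upf1* exons.

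The stem-loops are shown because they are the element through which this decay acts. A pattern of 16 bases, with arms of 6 bases around a loop of 4 bases, was searched for in the part of the GENCODE M21 transcripts after the stop codon. It was found in 40 of the 62 members. Among the 43 members with at least 60 annotated bases after the stop codon, 38 had a match, and many of the others have a transcript that ends at or near the stop codon in this annotation. There were 6 different sequences, each printed here at 1 member, 5′ to 3′ as DNA, with the stem-loop in capitals.
*H1f2* (chr13:23739508-23739533, plus strand): aaaaGGCTCTTTTCAGAGCCaccact
*H2bc12* (chr13:22036296-22036321, plus strand): caaaGGCTCTTTTAAGAGCCactaaa
*H2ac20* (chr3:96220412-96220437, minus strand): aaaaGGCTCTTTTTAGAGCCaccaaa
*H4c4* (chr13:23581946-23581971, plus strand): caaaGGCCCTTTTCAGGGCCactacc
*H4c9* (chr13:22040960-22040985, minus strand): taaaGGCCCTTTTTAGGGCCaccaca
*H4c11* (chr13:21735433-21735458, plus strand): taaaGGTCCTTTTCAGGACCaccaca
The first sequence was present in 24 members of the H1, H2A, H2B and H3 families. The sequence of *H2bc12* was shared by 5 members of H2B and H3, and that of *H2ac20* was found in no other member. The sequences of *H4c4*, *H4c9* and *H4c11* were found in 6, 2 and 2 members, which were all H4 genes. The 5 members with a long annotated end and no match were *H2bc4*, *H2bc21*, *H2bc23*, *H3c8* and *H4c1*. *H2bc21* had the longest such end, with 2192 bases after its stop codon.

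The promoters of members with RefSeq entries (58 sequences of 57 members, 250 bases before to 50 after the start, GRCm38.p6) were searched on both strands. CCAAT, the site of the factor NF-Y, was present in 86.2% of them and in 37.4% of all 32851 promoters of the same length. All promoters of H1, H2A, H2B and H3 genes held it, but only 27.3% of those of H4 genes did. TATAAA was present in 58.6% of the members' promoters and in 13.6% of all promoters. The octamer ATTTGCAT, the site of the POU factors OCT1 and OCT2, was present in 22.4% of the members' promoters and in 1.74% of all promoters. It was found in 6 of 17 promoters of H2A genes and 7 of 15 of H2B genes, and in those of no other family. Divergent H2A and H2B genes share a promoter, so that these counts are not independent, and a match is a description of the letters only. The promoter that *H2ac20* shares with *H2bc21* is printed because *H2bc21* differed from the other members in the results below, and that of *H1f2* because it was among the members with the largest difference between genotypes. The motifs are in capitals.
*H2ac20* (chr3:96220831-96221130, minus strand, also spanning the start of *H2bc21*): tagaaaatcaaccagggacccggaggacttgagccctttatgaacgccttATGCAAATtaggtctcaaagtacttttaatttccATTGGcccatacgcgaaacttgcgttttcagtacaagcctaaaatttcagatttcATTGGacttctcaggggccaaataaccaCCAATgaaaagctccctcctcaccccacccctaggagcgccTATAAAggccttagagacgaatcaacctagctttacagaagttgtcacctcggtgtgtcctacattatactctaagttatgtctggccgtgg
*H1f2* (chr13:23738557-23738856, plus strand): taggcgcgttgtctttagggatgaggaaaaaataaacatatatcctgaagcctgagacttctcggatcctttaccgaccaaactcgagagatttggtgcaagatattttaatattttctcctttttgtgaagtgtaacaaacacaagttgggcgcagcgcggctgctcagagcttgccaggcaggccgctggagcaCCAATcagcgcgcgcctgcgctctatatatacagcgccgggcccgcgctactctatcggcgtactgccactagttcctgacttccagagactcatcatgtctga

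Library totals lay between 68516857 and 160426338 counts. The gene-level count of *Upf1* in libraries labelled cKO was not below that of Ctrl (244.5 and 258.4 CPM, counts scaled to library size, in early LPre-B and 282.2 and 293.1 in sPre-B cells, against 236.9 and 213.3, then 185.6 and 197.9). This count passed as higher in cKO sPre-B cells (Log2FC 0.59, adjusted *P* = 0.00245, edgeR quasi-likelihood test). It did not pass in early LPre-B cells (0.16, adjusted *P* = 0.251). It covers the whole gene and so does not check the deletion of 3 exons. *Cd79a*, the locus of the Cre allele, was at 187.6, 160.0, 405.0 and 324.9 CPM in the cKO libraries and at 640.5, 542.9, 1478 and 1602 CPM in the Ctrl libraries of the same order. Of the 5 markers of early LPre-B cells, *Igll1* and *Vpreb1* (the surrogate light chain) and *Spn* fell at the sPre-B stage in both genotypes and *Kit* fell in Ctrl cells (adjusted *P* = 0.0536 in cKO cells). The other, *Il7r*, had a Log2FC of 0.14 in Ctrl cells and rose in cKO cells (0.75, adjusted *P* = 0.0121). Both sPre-B markers, *Cd2* and *Il2ra*, rose in both genotypes. The summed level of 3 T cell markers did not exceed 1.474 CPM in any library, and that of 4 erythroid markers did not exceed 20.57 CPM. The 5 myeloid markers summed to between 12.75 and 34.72 CPM in early LPre-B and between 27.75 and 88.52 CPM in sPre-B libraries. The counts of 4 Y-linked genes summed to over 1000 only in replicate 2 of each Ctrl group and to at most 34 in the other libraries.

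The members took a large part of the gene counts of early LPre-B cells and a small part of those of sPre-B cells. The 62 members together made up 10.69% and 9.055% of all gene counts in the Ctrl early LPre-B libraries and 7.024% and 6.193% in those labelled cKO. In sPre-B cells the shares were 1.834% and 0.9684% in Ctrl and 1.32% and 1.512% in cKO libraries. The 95% Wilson interval of each share was at most 0.00615 percentage points to either side, which covers counting error only. It does not cover reads that match several members, whose counting is not given in the sources used here. These are thus shares of counts and not of reads. The H3 genes contributed most, with 26.2% to 33.6% of the members' counts in a library, followed by H2A with 22.9% to 26.8%. The H1 genes contributed 9.37% to 12.5% of the members' counts in the early LPre-B libraries and at least 14.7% in each sPre-B library.

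**Figure D1:**
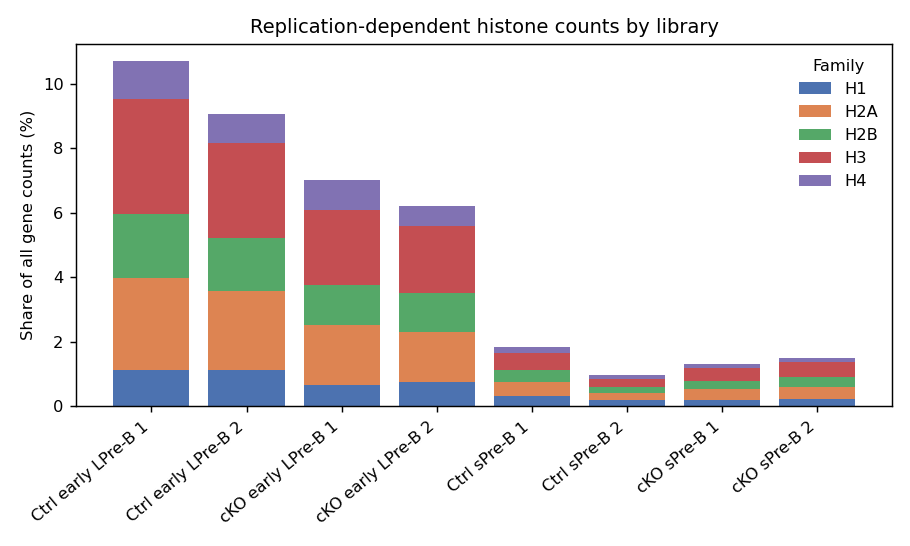
Share of all gene counts (y axis, percent) taken by the 62 members in each of the 8 libraries (x axis, group and replicate), stacked by family. The bars run from 10.69% in Ctrl early LPre-B replicate 1 to 0.9684% in Ctrl sPre-B replicate 2, and the 4 early LPre-B libraries are all above 6%.

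Per kilobase of transcript, averaged over the 8 libraries, the highest levels were those of 2 H3 genes on chromosome 13, *H3c4* (3789 CPM per kb) and *H3c2* (3651 CPM per kb). The highest of H2A were *H2ac12* (3244 CPM per kb) and *H2ac24* (3109 CPM per kb), and those of H2B were *H2bc15* (2786 CPM per kb) and *H2bc12* (2610 CPM per kb). *H1f2* (2160 CPM per kb) and *H1f1* (1623 CPM per kb) led the linker histones, and *H4c4* (2089 CPM per kb) and *H4c12* (1649 CPM per kb) led H4. At the low end stood *H2bc21* (7.751 CPM per kb), *H2ac1* (65.57 CPM per kb) and *H2bc1* (79.84 CPM per kb). The last 2 encode histone variants of the testis. The length used was the shorter of those in GENCODE and RefSeq. These were 405 and 522 bases for *H2ac12*, 381 and 478 for *H2bc15*, and 312 and 409 for *H4c12*. The order of members within a family thus depends on the annotation used for length. Early LPre-B libraries dominate these means, and the order differed in Ctrl sPre-B cells, where *H1f2* (1404 CPM per kb) stood above the H3 genes *H3c2* (934.7) and *H3c4* (910.8). Among the linker histones *H1f4* (771.1 CPM per kb) and *H1f3* (556.5 CPM per kb) were there above *H1f1* (400.8 CPM per kb).

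These genes are near copies of each other, which limits the values of single members. Of the windows of 100 bases in a member's transcripts, a median of 32.8% also occurred in another member, and 22 members shared more than 50% of theirs. *H2ac18* and *H2ac19*, adjacent genes for the same protein, shared 88.1% and 100% of their windows. Their counts in Ctrl early LPre-B replicate 1 were 384175 and 372264, so reads that match both were counted, and how they were divided is not given in the sources used here. In contrast, *H2bc21* shared no window with another member and *H2ac21* shared 1.45% of its windows.

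The change from the cycling to the resting stage was first examined in Ctrl cells. All 62 members passed at an adjusted *P* under 0.05 (edgeR quasi-likelihood test) as lower in sPre-B cells, beside 31.1% of all genes tested, and 0 were higher, beside 29.1%. The call of *H2ac1* rested on single libraries, as described below, and 61 members were lower without it. The median Log2FC of the members was −3.14, an 8.82-fold lower level, against a median of 0.02 over all genes. The libraries of the 2 stages did not overlap for any member, whereas 40.3% of all genes were lower without overlap. By family, the median Log2FC was −3.34 for H2A, −3.24 for H3, −3.09 for H2B and H4, and −2.59 for H1. Without *H2ac1*, the adjusted *P* values lay between 1.78e-06 and 0.000927.

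**Figure D2:**
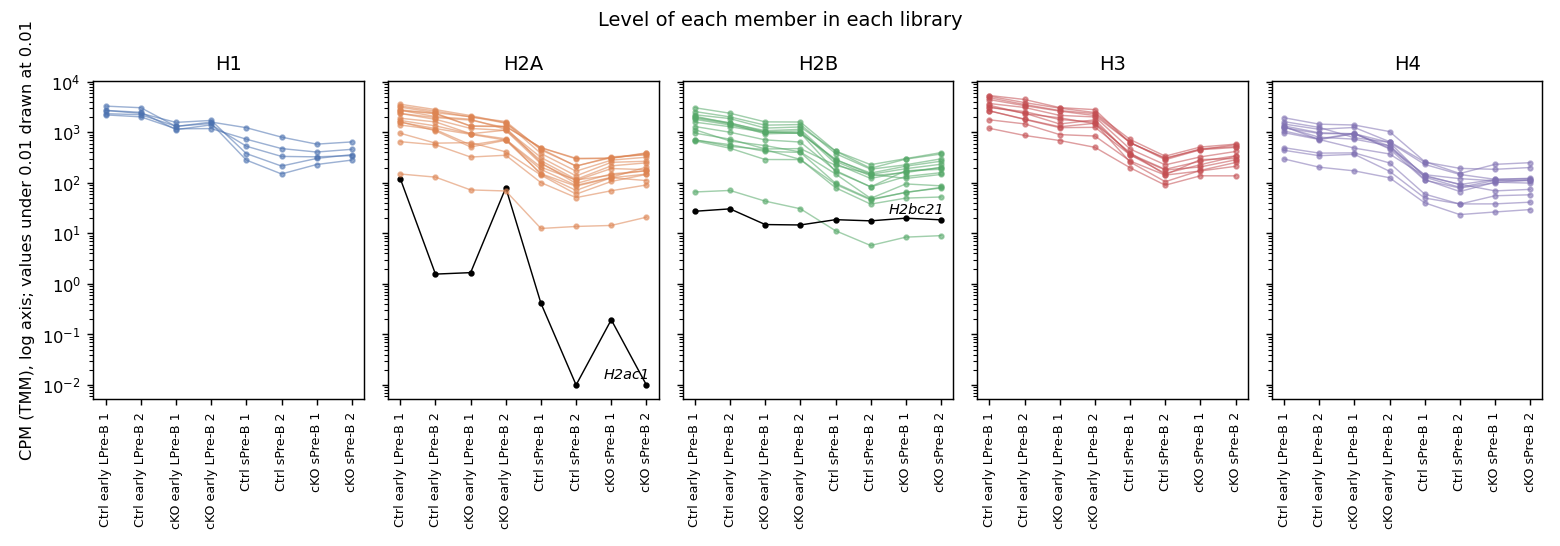
Level of each member (CPM, log axis, 1 line per gene) in the 8 libraries, with 1 panel per family. Lines step down between the early LPre-B and the sPre-B libraries in every family, *H2bc21* stays between 14.66 and 30.54 CPM, and *H2ac1* differs 77.21-fold between the Ctrl early LPre-B replicates.

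*H3c4*, the H3 gene with the highest level per length, was at 4824 and 3548 CPM in early LPre-B cells and at 631.5 and 286.6 CPM in sPre-B cells of Ctrl mice. Both early LPre-B values lay well above the sPre-B values, with a Log2FC of −3.19 ± 0.36 (SE, adjusted *P* = 8.49e-05). It was −3.80 without Ctrl sPre-B replicate 1. Among the 61 members other than *H2ac1*, *H2ac10* had the largest fall, from 1715 and 1340 CPM to 148.9 and 70.99 CPM. It was 13.9-fold lower (Log2FC −3.80 ± 0.34, adjusted *P* = 2.39e-05). The linker histone gene *H1f2* fell less, from 3297 and 3064 CPM to 1233 and 802.7 CPM (Log2FC −1.64 ± 0.22, adjusted *P* = 0.000248), and it was the member with the highest CPM in all 4 sPre-B libraries. The smallest fall was that of *H2bc21*, from 27.39 and 30.54 CPM to 18.68 and 17.70 CPM (Log2FC −0.67 ± 0.11, adjusted *P* = 0.000927). Its values were close between replicates in both groups and did not overlap between the stages.

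In cells labelled cKO the members also fell at the sPre-B stage, except for 1. There were 61 members lower, *H2ac1* among them, beside 31.1% of all genes, and 1 higher, beside 31.6% of all genes. The median Log2FC was −2.39, a 5.25-fold lower level, against 0.05 over all genes. The family medians were −2.60 for H4, −2.44 for H3, −2.27 for H2A, −2.24 for H2B and −1.91 for H1. Among the 61 members other than *H2ac1*, the largest fall was that of *H2ac22*, from 1741 and 1233 CPM to 150.3 and 172.6 CPM (Log2FC −3.20 ± 0.41, adjusted *P* = 0.00017). *H3c4* went from 2694 and 2338 CPM to 452.3 and 501.9 CPM (Log2FC −2.40 ± 0.35, adjusted *P* = 0.000356), and its replicates were close to each other at both stages. The member that rose was *H2bc21*, which was at 14.95 and 14.66 CPM in early LPre-B and at 19.99 and 18.55 CPM in sPre-B cells (Log2FC 0.38 ± 0.11, adjusted *P* = 0.0168). Its 2 pairs of libraries did not overlap, but the call was lost without cKO early LPre-B replicate 1 (adjusted *P* = 0.0738) or 2 (adjusted *P* = 0.0892) and without cKO sPre-B replicate 1 (adjusted *P* = 0.0944).

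The genotypes were then compared within each stage. Only cKO mice carried the Mb1 Cre allele, so that loss of *Upf1* and this allele cannot be told apart. In early LPre-B cells all 62 members had a negative Log2FC in cells labelled cKO, where 54.9% of all genes were negative. Of these, 16 members fell and 46 did not pass at an adjusted *P* under 0.05, beside 16.9% of all genes that were lower, and 0 rose, beside 14.5%. At an unadjusted *P* under 0.05, 38 members passed, beside 42.7% of all genes. The median Log2FC of the members was −0.74, a 1.67-fold lower level, against −0.06 over all genes, and 55 members were lower without overlap of the libraries, beside 36.4% of all genes. Summed over the members, the level in cKO cells was 0.592 of that in Ctrl cells with TMM scaling, 0.595 with median-ratio factors and 0.669 per library total.

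The members that fell were 3 linker histone genes (*H1f2*, *H1f3* and *H1f4*), 6 genes of H2A (*H2ac6*, *H2ac8* and *H2ac18* to *H2ac21*), 4 of H2B (*H2bc1*, *H2bc6*, *H2bc7* and *H2bc21*), *H3c11*, and *H4c17* and *H4c18*. By position, they were 5 of the 10 members on chromosome 3 and 11 of the 52 on chromosome 13. By the annotated 3′ end, they were 12 of the 40 members with a stem-loop match. Of those without a match, they were 1 of the 5 with a long end and 3 of the 17 with a short end. The share of all genes lower was 16.9%. In the order given, the median Log2FC was −0.79 and −0.74 by position, and −0.77, −0.76 and −0.70 by 3′ end. The family medians ranged from −0.84 for H1 to −0.56 for H4. Of the 10 members with the highest level per length in their families, only *H1f2* was among those that fell, and the others had a Log2FC between −0.48 for *H4c4* (adjusted *P* = 0.205) and −0.80 for *H2ac24* (adjusted *P* = 0.109).

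The largest falls were those of *H2ac8* and *H1f2*. *H2ac8* was at 1617 and 1071 CPM in Ctrl and at 512.2 and 696.0 CPM in cKO early LPre-B cells (Log2FC −1.15 ± 0.29, adjusted *P* = 0.0178). Its groups did not overlap, although the Ctrl replicates differed 1.51-fold. *H1f2* was at 3297 and 3064 CPM in Ctrl and at 1305 and 1595 CPM in cKO cells, a 2.19-fold lower level (Log2FC −1.13 ± 0.22, adjusted *P* = 0.0054). *H2bc21* had the lowest adjusted *P* (0.000494), at 27.39 and 30.54 CPM in Ctrl and 14.95 and 14.66 CPM in cKO cells (Log2FC −0.97 ± 0.11). *H2ac21*, a lowly expressed H2A gene beyond *H2ac20* in the same cluster, was at 149.6 and 129.7 CPM in Ctrl and 72.41 and 69.04 CPM in cKO cells (Log2FC −0.98 ± 0.16, adjusted *P* = 0.00255). Both genes were lower in each cKO library by more than the difference between replicates.

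The number of members that passed changed with the libraries used. It was 4 without Ctrl early LPre-B replicate 1 (10.3% of all genes lower), 11 without Ctrl early LPre-B replicate 2 (11.1%), 8 without cKO early LPre-B replicate 1 (7.15%) and 6 without cKO early LPre-B replicate 2 (10.3%). It was 47 (13.9% of all genes lower) without either of the Ctrl sPre-B libraries, which are in neither group compared but enter the shared spread, the scaling and the expression filter (18410 and 18452 genes tested without them). It was 48 without both Ctrl libraries with over 1000 Y-linked counts (11.6% of all genes lower). The median Log2FC stayed between −0.88 and −0.51 without any 1 library. Among 20 other S-phase and replication genes, 4 were lower (*Pcna*, *Mcm3*, *Mcm4* and *Cdk2*) and 0 were higher in cKO early LPre-B cells, beside 16.9% and 14.5% of all genes, with a median Log2FC of −0.33. Of the 5 early LPre-B markers, *Kit* (Log2FC −2.51, adjusted *P* = 0.00387) and *Spn* (−0.57, adjusted *P* = 0.0172) were lower in these cells, and *Igll1*, *Vpreb1* and *Il7r* did not pass. Of the 2 sPre-B markers, *Il2ra* (−1.02, adjusted *P* = 0.00586) was lower and *Cd2* did not pass. Of the 5 B lineage genes, 2 were lower, *Ebf1* (−0.45, adjusted *P* = 0.035) among them, and 3 did not pass. Among markers of other cells, 1 of 5 myeloid (*Lyz2*, Log2FC −1.39), 1 of 4 erythroid (*Hbb-bs*, −1.61), 1 of 3 plasma cell (*Sdc1*, −0.88) and 0 of 3 T cell genes were lower, and 0 were higher. Their summed levels in Ctrl and cKO early LPre-B libraries were 21.66 and 34.72 against 17.59 and 12.75 CPM for the myeloid list and 10.10 and 10.87 against 6.467 and 2.555 CPM for the erythroid list. Those of the plasma cell list, nearly all *Sdc1*, were 89.33 and 74.14 against 41.52 and 47.29 CPM. The part of any of these lists in the lower histone levels was not tested. In bulk RNA, fewer cells with histone mRNA and less of it per cell cannot be told apart.

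**Figure D3:**
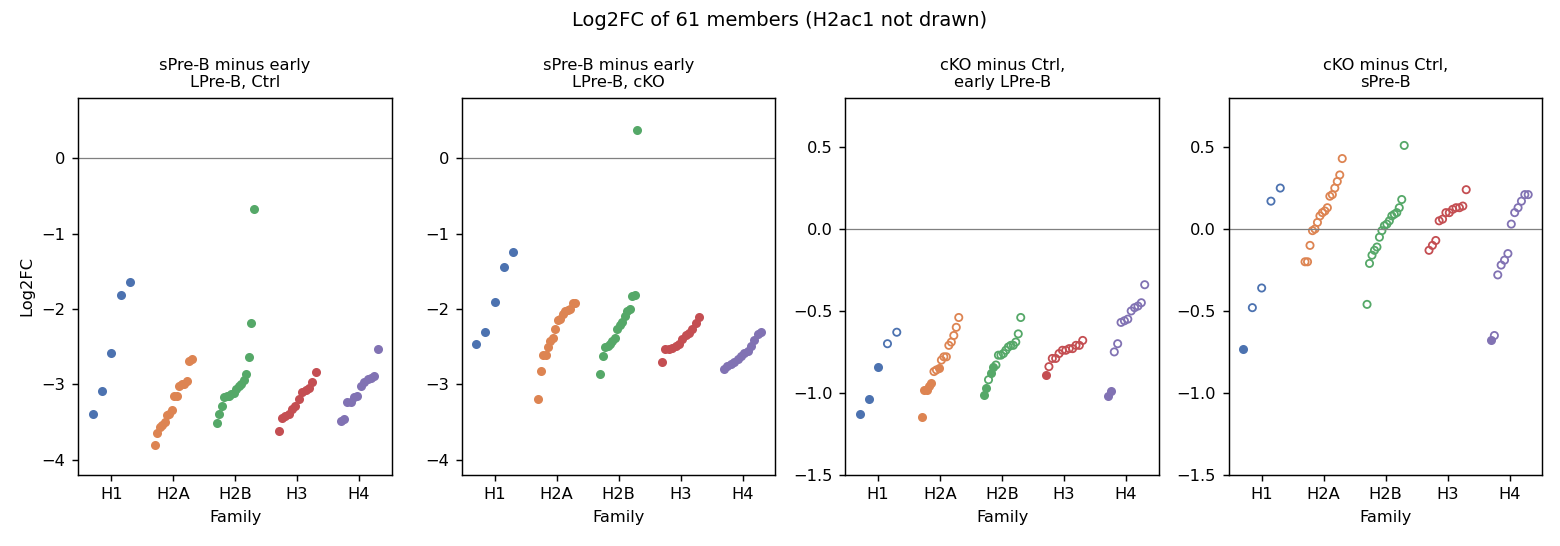
Log2FC (y axis) of the members by family (x axis) in the 4 comparisons between groups, for 61 members without *H2ac1*. Filled points passed an adjusted *P* under 0.05 and open points did not. All points lie below 0 for stage, except that of *H2bc21* in cKO cells, all lie below 0 for genotype in early LPre-B cells, and the points for sPre-B cells lie on both sides of 0.

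In sPre-B cells the members had no common direction by genotype. The median Log2FC was 0.05 (0.01 over all genes), 38 members were positive (51.0% of all genes) and 24 were negative (48.9%), and 60 of 62 did not pass the test. The 2 that fell, beside 14.9% of all genes, were *H1f2* and *H4c17*, and 0 rose, beside 19.8% of all genes. At an unadjusted *P* under 0.05, 5 members passed, beside 44.9% of all genes. DESeq2 called 5 lower, beside 18.3% of all genes, and 0 higher, beside 19.4%. *H1f2* was at 1233 and 802.7 CPM in Ctrl and at 583.2 and 645.4 CPM in cKO cells (Log2FC −0.73 ± 0.22, adjusted *P* = 0.0305). *H4c17*, which shares 88.1% of its windows with *H4c18*, was at 135.8 and 93.81 CPM in Ctrl and at 69.32 and 74.21 CPM in cKO cells (Log2FC −0.68 ± 0.22, adjusted *P* = 0.0389). Neither gene's groups overlapped, but both calls were lost without Ctrl sPre-B replicate 1 or without either cKO sPre-B library. The summed level in cKO cells was 0.973 of that in Ctrl cells with TMM scaling, 0.948 with median-ratio factors and 1.01 per library total. By family this ratio was 0.769 for H1, 0.926 for H4, 1.01 for H2B, 1.03 for H2A and 1.05 for H3. That of H2B was 0.984 with median-ratio factors. Of the 5 early LPre-B markers, 2 were higher and 0 lower in cKO sPre-B cells, and 0 of 2 sPre-B markers passed. Lower were 2 of 5 B lineage, 1 of 4 erythroid and 1 of 3 plasma cell genes, and 0 of these were higher. The 5 myeloid and 3 T cell genes did not pass. The part of these lists in the histone levels was not tested.

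The sPre-B comparison rested on Ctrl libraries that disagreed. Of the 62 members, 61 were higher in Ctrl sPre-B replicate 1 than in replicate 2, with a median ratio of 1.98, and 88.7% of the members were more than 1.5-fold apart. Only 2.28% of the 8328 other genes of like count in this group were that far apart, and their median difference was 1.08-fold. Leaving aside *H2ac1*, with 35 and 0 counts, *H2bc13* was the farthest apart, at 150.1 and 49.27 CPM (a ratio of 3.046), and *H3c8* was at 395.1 and 144.8 CPM (2.727). The 1 member that was not higher in replicate 1 was *H2ac21* (12.51 and 13.70 CPM). *H2bc21* (18.68 and 17.70 CPM) and the H4 genes *H4c2*, *H4c3*, *H4c8*, *H4c11* and *H4c17* were also less than 1.5-fold apart. All 20 S-phase and replication genes were also higher in replicate 1, with a median ratio of 1.47. Their part in the difference was not tested. Without Ctrl sPre-B replicate 1, 9 members were higher (12.7% of all genes) and 0 lower in cKO cells (median Log2FC 0.58), and without replicate 2, 6 were lower (11.0% of all genes) and 0 higher (median −0.39). Without cKO sPre-B replicate 1, 1 member was higher and 0 were lower (12.3% and 7.44% of all genes), and without cKO sPre-B replicate 2, 0 were called (15.0% of all genes higher and 10.8% lower) and the median was −0.07. The sign of the members' median in sPre-B cells thus changed with the library left out.

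The other groups agreed better. The median member was 1.29-fold apart between the Ctrl early LPre-B replicates, 1.22-fold between the cKO early LPre-B replicates and 1.15-fold between the cKO sPre-B replicates. For genes of like count the median difference was 1.10-fold, 1.07-fold and 1.08-fold. In Ctrl early LPre-B cells 60 of 62 members were higher in replicate 1. In cKO early LPre-B cells 16.1% of the members were more than 1.5-fold apart, beside 0.77% of genes of like count.

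**Figure D4:**
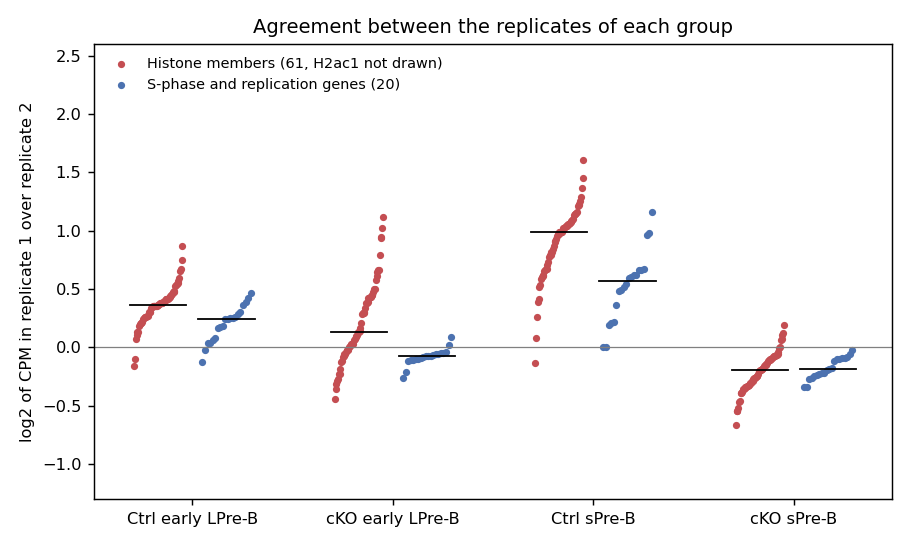
Ratio of CPM in replicate 1 to replicate 2 (y axis, log2) of the histone members (61, red) and the S-phase and replication genes (20, blue) in each group (x axis), with black lines at the medians. The Ctrl sPre-B group stands highest, with a median ratio of 1.98 for all 62 histone members and 1.47 for the S-phase and replication genes.

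*H2ac1* could not be compared between groups. In early LPre-B cells its counts were 16691 and 122 for Ctrl and 182 and 10394 for cKO. The higher library was replicate 1 in the Ctrl group and replicate 2 in the cKO group. In sPre-B cells it had 35 and 0 counts in Ctrl and 18 and 1 counts in cKO libraries. No fold change is given for a gene whose replicates differ this much, although it passed both stage tests (adjusted *P* = 0.0218 and 0.0197), and neither call held without the early LPre-B library in which it was high (adjusted *P* = 0.343 and 0.167) or without either sPre-B library of that genotype. The divergent gene *H2bc1* beside it showed no such difference, where the Ctrl early LPre-B replicates had 9116 and 5519 counts and those labelled cKO had 4726 and 3988.

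Whether the stage change differed by genotype was tested with the interaction of stage and genotype. The members' interaction Log2FC, which is the cKO effect in sPre-B cells minus that in early LPre-B cells, had a median of 0.79 (0.07 over all genes) and was positive in 61 of 62 members, beside 57.0% of all genes. Only 2 members passed, both positive, beside 2.64% of all genes, and 0 were negative and passed, beside 1.60%. They were *H2ac21* (1.41 ± 0.23, adjusted *P* = 0.0181) and *H2bc21* (1.05 ± 0.16, adjusted *P* = 0.0142), which lie at chr3:96219885-96220354 and chr3:96221072-96223738 with *H2ac20* between them. *H2ac20* itself had an interaction Log2FC of 0.93 (adjusted *P* = 0.217). In Ctrl cells *H2ac21* fell from 149.6 and 129.7 CPM to 12.51 and 13.70 CPM, and in cKO cells it fell from 72.41 and 69.04 CPM to 14.35 and 20.90 CPM. The number of members that passed was 31 without Ctrl sPre-B replicate 1 (all positive, beside 3.09% of all genes) and 0 without Ctrl sPre-B replicate 2 (0.770%) or cKO early LPre-B replicate 1 (0.466%) or 2 (0.930%). It was 1 without Ctrl early LPre-B replicate 1 (1.13%) or 2 (0.679%). The other 60 members did not pass the test, among them *H2ac8* with an interaction Log2FC of 1.36 ± 0.41 (adjusted *P* = 0.104).

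Genes that process or degrade histone mRNA were examined next, as a list of 31 genes. Of these, 18 were lower and 3 higher at the sPre-B stage in Ctrl cells, and 16 were lower and 5 higher in cKO cells, where 31.1% of all genes were lower in each genotype and 29.1% and 31.6% were higher. *Slbp*, which encodes the protein that binds the stem-loop, was at 287.0 and 255.9 CPM in Ctrl and at 176.5 and 184.7 CPM in cKO early LPre-B cells (Log2FC −0.59, adjusted *P* = 0.00734). In sPre-B cells it was at 55.50 and 45.97 CPM in Ctrl and at 38.27 and 44.58 CPM in cKO cells (Log2FC −0.29, adjusted *P* = 0.097), and it fell between the stages in both genotypes (Log2FC −2.42 and −2.12). *Eri1*, the exonuclease that trims the stem-loop, was also lower at the sPre-B stage in both genotypes (Log2FC −1.40 and −1.11), and so was *Casp8ap2* (FLASH), which is needed for 3′ end cleavage (−1.66 and −1.34).

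By genotype, at the early LPre-B stage 6 genes of this list were higher and 3 lower in cells labelled cKO, and 13 were higher and 3 lower in sPre-B cells. Of all genes, 14.5% were higher and 16.9% lower at the first stage, and 19.8% were higher and 14.9% lower at the second. Those higher at both stages were *Srrt* (ARS2, a partner of the cap-binding complex), *Cpsf3*, which cleaves the histone pre-mRNA, the UPF1 cofactor gene *Upf2*, the UPF1 kinase gene *Smg1*, the uridyltransferase gene *Tut7* and *Dis3l2*, which degrades uridylated RNA. *Srrt* differed most, with a Log2FC of 0.79 in early LPre-B (adjusted *P* = 0.000937) and 1.22 in sPre-B cells (adjusted *P* = 0.000102). *Dis3l2* had a Log2FC of 0.57 (adjusted *P* = 0.00215) and 0.85 (adjusted *P* = 0.000244). None of the 31 genes passed the interaction test, beside 2.64% of all genes that passed as positive and 1.60% as negative.

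The replacement histones, which are mostly expressed from polyadenylated mRNAs outside these clusters, did not all follow the members. Of 11 genes, 7 were lower and 0 higher at the sPre-B stage in Ctrl cells, and 7 were lower and 1 higher in cKO cells, beside 31.1% of all genes lower in each genotype and 29.1% and 31.6% higher. Of these, *H1f0* passed in Ctrl cells and not in cKO cells, *Macroh2a2* passed in cKO cells and not in Ctrl cells, and the gene that rose was *H2aj* (Log2FC 0.42, adjusted *P* = 0.0229). *H2ax*, whose mRNA can also end in a stem-loop, fell from 1259 and 1120 CPM to 186.9 and 92.44 CPM in Ctrl cells (Log2FC −3.09, adjusted *P* = 3.31e-05). Its Ctrl sPre-B replicates thus differed in the same direction as those of the members. *H3f3a* and *H3f3b*, which encode H3.3, did not pass the test for stage in either genotype. Both were lower in cells labelled cKO at both stages, with a Log2FC of −0.95 and −0.61 for *H3f3a* and −0.70 and −0.84 for *H3f3b* in early LPre-B and sPre-B cells. *H3f3b* was at 825.0 and 800.7 CPM in Ctrl and 504.0 and 499.4 CPM in cKO early LPre-B cells, and at 921.7 and 934.3 CPM in Ctrl and 522.8 and 514.6 CPM in cKO sPre-B cells (adjusted *P* = 0.00236 and 0.000814). In these genes the replicates were close and the genotypes did not overlap. By genotype, 5 of the 11 replacement histone genes were lower and 0 higher in early LPre-B cells, beside 16.9% and 14.5% of all genes. In sPre-B cells 2 were lower and 1 higher (*H1f10*), beside 14.9% and 19.8% of all genes.

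Of 16 histone chaperone genes, 12 were lower and 1 higher at the sPre-B stage in each genotype, beside the same shares of all genes (31.1% lower, 29.1% and 31.6% higher). *Chaf1a*, the large subunit of the CAF-1 complex that deposits H3 and H4 on new DNA, had the largest fall of this list in Ctrl cells (Log2FC −3.84) and fell less in cKO cells (−2.73). Its levels in sPre-B cells were 17.12 and 11.91 CPM in Ctrl and 24.21 and 25.93 CPM in cKO libraries. The difference between genotypes in the change with stage passed the interaction test (1.10, adjusted *P* = 0.0295). By genotype, 1 of the 16 genes was higher and 3 lower in cKO early LPre-B cells, beside 14.5% and 16.9% of all genes. In sPre-B cells 3 were higher and 1 lower, beside 19.8% and 14.9%. *Hira*, which deposits H3.3, was higher in cells labelled cKO at both stages (Log2FC 0.60 and 0.88), whereas *Asf1a* was lower at both (−0.54 and −0.87).

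The 20 S-phase and replication genes were all lower at the sPre-B stage in both genotypes, beside 31.1% of all genes in each, with a median Log2FC of −3.47 in Ctrl and −2.77 in cKO cells. By genotype, 9 were higher and 2 lower in sPre-B cells labelled cKO, beside 19.8% and 14.9% of all genes. *Mcm7* (interaction Log2FC 1.20, adjusted *P* = 0.0167) and *Cdc45* (1.03, adjusted *P* = 0.0472), which encode parts of the replicative helicase, passed the interaction test. The median interaction Log2FC of these 20 genes was 0.86, beside 0.79 for the histone members. All of these comparisons share libraries with each other, and the lists are set side by side as values only.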

How the data were processed

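RNA of early LPre-B and sPre-B cells of both genotypes was analysed in 8 libraries. Reads had been trimmed (Trim Galore) and mapped to mm10 as unstranded pairs (HISAT2), and the authors deposited the featureCounts output, raw counts per gene. The setting for reads that match several genes is not given in the sources used here, and the counts of *H2ac18* and *H2ac19* show that such reads were counted. Without strand, reads of overlapping genes cannot be told apart. Of the 27179 Entrez identifiers, 25275 were named from RefSeq.

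Counts were fitted in R 4.3.3 with edgeR 4.0.16, with TMM factors, its expression filter by group, 1 mean per group and 17700 genes (common biological coefficient of variation 0.174). The two-sided quasi-likelihood F test was adjusted by the Benjamini-Hochberg method over all of them. CPM values were scaled with the TMM factors. Errors of Log2FC are standard errors. Levels per kilobase used the shorter of the RefSeq span and the exons of GENCODE M21. A level of 3 counts, the smallest taken as shown, corresponds to between 0.0217 and 0.0426 CPM.

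Members and lists were chosen with earlier results of these data known. Named were the 2 members of each family with the highest level per length, up to 2 increases and 2 decreases per comparison among members that passed with 50 counts or more in both libraries of the higher group, the 3 members with the most discordant replicates, those that passed the interaction test, and *H2ac1* and *H2bc1*. Members listed by name as having passed, members described for their sequence and genes of the other lists were named with their values known. Alternatives to these fits were DESeq2 1.42.0, the likelihood-ratio test, median-ratio factors, no filter, a replicate block and leaving out libraries. A fit without the members in the library sizes was added after the data were seen. On simulated data for the sPre-B comparison, with 200 of 17700 genes changed 4-fold, 159 of the 196 that passed the filter were recovered, 0 had the wrong sign and 14 unchanged genes were called.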

Additional observations from a re-analysis of the deposited data

Results flagged for a closer look

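The difference between genotypes was not the same at the 2 stages for *H2ac21*, by an interaction Log2FC of 1.41 (adjusted *P* = 0.0181, edgeR quasi-likelihood test). It was lower in cells labelled cKO at the early LPre-B stage (Log2FC −0.98) and had a Log2FC of 0.43 in sPre-B cells (adjusted *P* = 0.0738). The same test gave 1.05 for *H2bc21* (adjusted *P* = 0.0142), with a Log2FC of −0.97 in early LPre-B and 0.08 in sPre-B cells (adjusted *P* = 0.609). Both genes had close replicates in the Ctrl sPre-B group, where 88.7% of the members were more than 1.5-fold apart. In the cKO sPre-B group, where the median member was 1.15-fold apart, *H2ac21* was at 14.35 and 20.90 CPM and *H2bc21* at 19.99 and 18.55 CPM. These were 2 of 62 members, beside 2.64% of all genes, and 0 members passed without Ctrl sPre-B replicate 2, without either cKO early LPre-B library or without both Ctrl libraries with over 1000 Y-linked counts. The interaction Log2FC of *H2ac8* (1.36 ± 0.41, adjusted *P* = 0.104) and *H2bc18* (1.06 ± 0.39, adjusted *P* = 0.17) was at least as large as that of *H2bc21*. Neither passed, and their standard errors were larger than those of *H2ac21* (0.23) and *H2bc21* (0.16). With 2 libraries per group, no library was tested for standing apart from its group.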

How the results depend on the processing

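The falls of the members at the sPre-B stage kept their direction and number of calls (61 or 62 in Ctrl, 60 to 61 in cKO cells without any 1 library). In early LPre-B cells the number of members lower in cells labelled cKO was 16 (16.9% of all genes lower). It was 29 with the likelihood-ratio test (17.2%), 46 without the expression filter (13.3%), 48 without both Ctrl libraries with over 1000 Y-linked counts (11.6%) and 4 to 47 without any 1 library. All 16 were also called in each of the 6 other fits of all 8 libraries. In sPre-B cells the number of members lower was 2. It was 5 with DESeq2 (18.3% of all genes), 8 without both Ctrl libraries with Y-linked counts (12.4%) and 0 to 6 without any 1 library, and the number higher was 1 without the filter (15.8%) and 0 to 9 without any 1 library. The median there, 0.05, was −0.39 without both Ctrl libraries with Y-linked counts and ran from −0.39 to 0.58 without any 1 library, with −0.07 without cKO sPre-B replicate 2. The number that passed the interaction test was 6 without the filter, all positive (4.71% of all genes), 0 without both Ctrl libraries with Y-linked counts (0.321%) and 0 to 31 without any 1 library. At the sPre-B stage in cKO cells, 0 to 1 members were higher, with a median between −2.50 and −2.18. With 1 library left in a group, that library is assumed to vary like the other groups, and the cause of these changes was not tested. By the labels, libraries share only a replicate number, although in Ctrl cells the replicate 2 libraries of both stages also shared the Y-linked counts, and whether they came from the same animal is not given. The deviations of same-numbered libraries correlated at 0.155 between genotypes in early LPre-B and 0.0858 in sPre-B cells, and at 0.395 and 0.254 between stages in Ctrl and cKO cells. A fit with the replicate number as a block gave 24 members lower in early LPre-B cells (18.4% of all genes), 3 in sPre-B cells (16.4%) and 2 positive in the interaction test (3.38%), and it changed no call of a named gene. With 2 libraries per group, differences smaller than the spread of a pair could not be shown at any depth.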
